A study of Bos taurus with 15 samples.

Results

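The dystrophin-glycoprotein complex was followed through 8 of its genes in bovine biceps brachii: dystrophin (DMD), utrophin (UTRN), dystroglycan (DAG1), α-, β- and δ-sarcoglycan (SGCA, SGCB, SGCD), α-dystrobrevin (DTNA) and sarcospan (SSPN). The genes were chosen by name as components of the complex, with earlier results of these data known. They were looked up among 15542 genes tested on the array. Their probes were found by the gene name or identifier in the array annotation or by the human symbol in its description, and for DAG1 by the accession through the RefSeq table, which gave 12 probes of 21475. A gene is represented below by its brightest probe, and levels are log2 intensities scaled between arrays, which compare 1 probe between animals and not 1 gene with another.

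Total RNA of the muscle was hybridised to 1-colour Agilent bovine arrays, 1 array per animal, from samples taken at slaughter. The 8 treated animals (P25 to P32) were given 30 mg of oral prednisolone (a glucocorticoid drug) daily over 35 days, and their RNA was extracted with TRIzol and cleaned on RNeasy MinElute columns. The 7 controls (C17, C18 and C20 to C24) carry the label CONTROL, and their RNA was extracted with the RNeasy Mini kit. The treatment text attached to the controls describes Finaplix, Revalor and Revalor with dexamethasone, and does not say that any control received them. Group and extraction kit therefore cannot be told apart, and breed and age are not given in the sources used here, which call the treated animals cows. The animal numbers in the labels were taken as separate animals. Between 72.1% and 87.4% of the spots had a value on an array.

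The complex spans the membrane of the muscle fibre. Dystrophin binds actin on the inside and the transmembrane part of dystroglycan at its other end, while the outer part of dystroglycan carries sugar chains that hold laminin and other matrix proteins. The sarcoglycans and sarcospan form a tight subcomplex beside dystroglycan, and dystrobrevin and the syntrophins bind dystrophin from the cytoplasm. Utrophin is the close relative of dystrophin that in adult muscle is concentrated at neuromuscular and myotendinous junctions. Loss of dystrophin causes Duchenne muscular dystrophy, in which glucocorticoids such as prednisolone are a standard treatment, and loss of sarcoglycans causes limb-girdle dystrophies.

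Of the 8 genes, 5 had 1 probe and 3 had several. The probes of DMD, UTRN and DTNA, the brighter SGCB probe and the second SGCD probe were named by the human symbol in the array description, and those of SGCA and SSPN, the brighter SGCD probe and the second SGCB probe by the bovine gene. The DMD probe is described by the Dp427c transcript, a full-length form of dystrophin. Which forms of dystrophin the probe binds in this muscle was not tested. The DAG1 probe needs care. The array annotation calls its gene RAB7, whereas the RefSeq table (assembly ARS-UCD2.0) assigns the same record to DAG1 and lists RAB7 as a synonym of it. Another probe on the array carries RAB7A itself. Which transcript the DAG1 probe binds was not tested, so values given for DAG1 are those of this probe. All 12 probes had a value in all 15 animals, lay well above background on all 8 treated arrays and were saturated on 0 of them. The same flags were not used for controls, whose scanner output was not analysed here.

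As a check of the tissue, 9 of 10 listed fibre markers had a probe, and all 9, among them skeletal actin (ACTA1), myosin (MYH1, MYH7) and myoglobin (MB), lay well above background on all treated arrays. Transcripts of other tissues were present too. The mean log2 intensity of 5 testis germ cell transcripts valued on all arrays (of 7 listed) ran from 6.98 to 12.03 in controls and from 3.79 to 11.35 in treated animals, highest on C20 and P31. This mean includes PRM2, which was not well above background on any treated array (mean 1.41 in controls and 1.45 in treated animals). The mean of 5 thymocyte transcripts (of 7 listed) ran from 5.49 to 10.97 in controls, highest on C17, and from 5.37 to 10.09 in treated animals. Their part in the values below was not tested. Without C20 and P31 the differences of the 8 genes between groups lay between -0.17 for DMD and 0.07 for SSPN, with that of DTNA at 0.05 against 0.16 in all animals. In whole muscle, fewer cells of a type and less RNA per cell cannot be told apart.

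The first question was whether prednisolone altered the transcripts of the complex. None of the 8 genes passed the test. The log2 differences between treated and control animals (treated minus control) lay between -0.14 for DMD and 0.16 for DTNA, 5 of them positive and 3 negative (52.1% of all genes tested had a positive difference), and the groups overlapped for all 8. The median difference was 0.05, against 0.01 over all genes tested. The adjusted p lay between 0.993 and 0.995 (limma, Benjamini-Hochberg over all probes), and 0 of 8 genes had an unadjusted p under 0.05. limma called 0% of the 15542 genes and the exact Wilcoxon test 0%. At an unadjusted p under 0.05 the shares were 3.21% (499 genes) by limma and 2.77% (430 genes) by the Wilcoxon test. Groups failed to overlap for 0.225% of all genes (35), none of them among the 10124 genes that were well above background on all treated arrays and valued in every animal.

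The intervals give the precision of the differences. They come from all animals and from the scaling to a common 75th percentile. For all 8 genes, and for all 12 probes, the 95% interval of the difference excluded any change of 1.5-fold or more, up or down. This held for 46.5% of all genes tested, and for 63.0% of the 10124 well-measured genes. The interval reached farthest for DTNA upwards, to 1.48-fold, and for DMD downwards, to 0.679-fold. Both differences moved when single animals were left out. That of DTNA ran from 0.06 without C20 to 0.25 without C18, against 0.16 with all animals. That of DMD ran from -0.22 without C24 to 0.03 without C18, against -0.14. Whether the 1.5-fold bound holds without these animals or under another scaling was not tested.

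**Figure D1:**
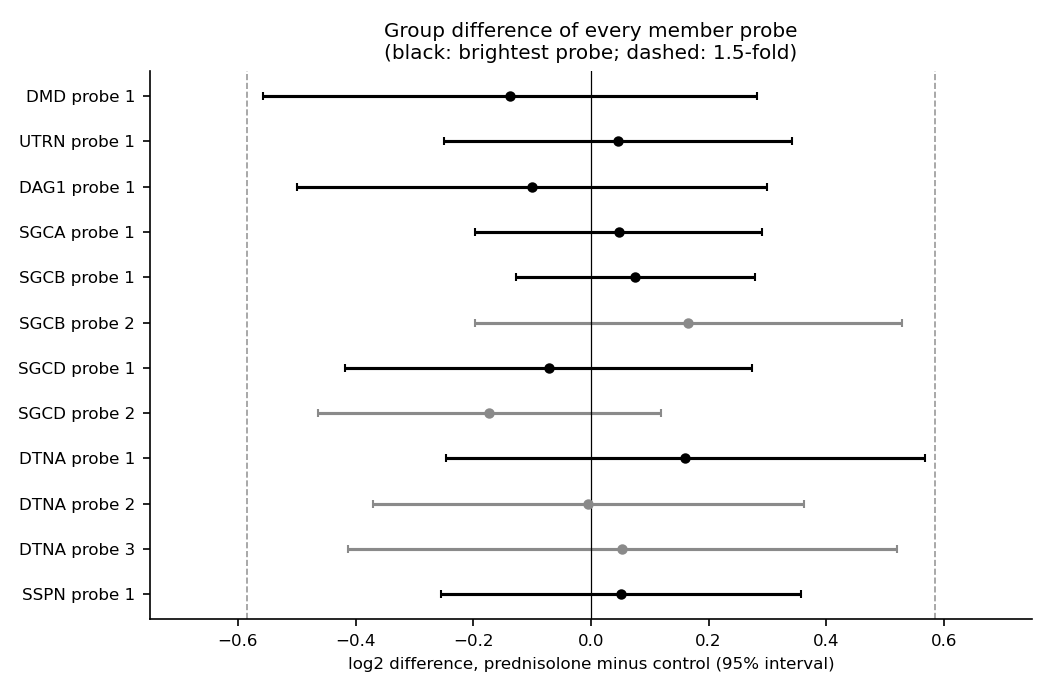
Log2 difference between prednisolone-treated (n = 8) and control (n = 7) animals for each of the 12 probes, with bars for the 95% interval from limma. Black points are the brightest probe of each gene and grey points its other probes. Every interval crosses 0 and lies between the dashed lines at a 1.5-fold change.

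Dystrophin and utrophin, the cytoskeletal anchors, were described first. DMD ran from 9.66 on C24 through a median of 9.93 to 11.11 on C18 in controls, and from 9.62 on P28 through 10.05 to 10.30 on P32 in treated animals. C18 lay above all other animals, and 7 of 8 treated animals fell within the control range. The means were 10.13 ± 0.50 (SD, n = 7) and 9.99 ± 0.24 (SD, n = 8), a difference of -0.14 (95% interval -0.56 to 0.28, limma adjusted p = 0.993), although 6 of 8 treated animals were above the control median. The negative sign rests on C18: without this animal the difference was 0.03.

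UTRN ran from 9.26 on C17 through 9.48 to 10.03 on C18 in controls and from 9.48 on P31 through 9.64 to 9.94 on P25 in treated animals. All 8 treated animals were within the control range, and C18 and C21 stood together at the top. The means were 9.60 ± 0.32 (SD, n = 7) and 9.65 ± 0.16 (SD, n = 8), a difference of 0.05 (95% interval -0.25 to 0.34, limma adjusted p = 0.995). Its sign turned without C17 or without C23, with a lowest value of -0.01. For both genes the difference was smaller than the SD of either group.

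α-Dystrobrevin, the cytoplasmic partner that binds dystrophin and the syntrophins, had the largest positive difference of the 8. DTNA ran from 10.15 on C20 through 10.66 to 11.28 on C18 in controls and from 10.43 on P26 through 10.88 to 11.39 on P32 in treated animals. P30 and P32 lay above all controls, and 6 of 8 treated animals were above the control median. The means were 10.73 ± 0.39 (SD, n = 7) and 10.89 ± 0.35 (SD, n = 8), a difference of 0.16 (95% interval -0.25 to 0.57, limma adjusted p = 0.993). Without C20 the difference was 0.06, and without C20 and P31 together it was 0.05.

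DAG1, the laminin receptor at the centre of the complex, ran from 12.19 on C24 through 12.48 to 13.28 on C18 in controls and from 11.97 on P27 through 12.56 to 12.85 on P25 in treated animals. The treated animals fell apart into P27, P28 and P29, all below the lowest control, and 5 animals within the control range. The means were 12.56 ± 0.37 (SD, n = 7) and 12.46 ± 0.36 (SD, n = 8), a difference of -0.10 (95% interval -0.50 to 0.30, limma adjusted p = 0.993) that turned to 0.02 without C18. The RAB7A probe, measured separately, was at 14.29 ± 0.14 in controls and 14.20 ± 0.17 in treated animals, a difference of -0.09 (95% interval -0.31 to 0.13). Its Pearson correlation with the DAG1 probe across animals was 0.65, beside 0.68 between the DAG1 probe and DMD. What this means for the target of the DAG1 probe was not tested.

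The sarcoglycans stabilise dystroglycan in the membrane, and SGCA and SGCB had the smallest spread of the 8 genes. SGCA ran from 13.68 on C20 through 13.73 to 14.07 on C18 in controls and from 13.59 on P28 through 13.75 to 14.24 on P25 in treated animals. In controls, 6 animals lay close together and C18 stood apart from them, whereas P25 lay above all controls and P26, P28 and P31 below all of them. The means were 13.77 ± 0.14 (SD, n = 7) and 13.82 ± 0.23 (SD, n = 8), a difference of 0.05 (95% interval -0.20 to 0.29), which was -0.01 without P25.

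SGCB ran from 12.14 on C17 through 12.40 to 12.58 on C18 in controls and from 12.24 on P32 through 12.46 to 12.57 on P30 in treated animals. Every treated animal lay within the control range. The means were 12.37 ± 0.17 (SD, n = 7) and 12.44 ± 0.11 (SD, n = 8), a difference of 0.08 with the narrowest interval of the 8 genes (-0.13 to 0.28). The pooled SD within groups was 0.138 for SGCB and 0.191 for SGCA, and 98.5% and 91.9% of the 10124 well-measured genes had a larger one.

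SGCD ran from 8.80 on C17 through 9.33 to 9.47 on C24 in controls and from 8.76 on P32 through 9.14 to 9.83 on P30 in treated animals. P30 and P31 lay above all controls and P32 below all of them, and 2 of 8 treated animals were above the control median. The means were 9.26 ± 0.23 (SD, n = 7) and 9.19 ± 0.36 (SD, n = 8), a difference of -0.07 (95% interval -0.42 to 0.27). Here C18, highest of the controls for the other 7 genes, was not at the top.

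SSPN, the small tetraspan-like protein that joins the sarcoglycans, ran from 7.88 on C22 through 8.15 to 8.68 on C18 in controls and from 7.98 on P25 through 8.18 to 8.70 on P30 in treated animals. The groups covered nearly the same range, with P30 just above C18. The means were 8.21 ± 0.26 (SD, n = 7) and 8.26 ± 0.27 (SD, n = 8), a difference of 0.05 (95% interval -0.26 to 0.36, limma adjusted p = 0.994). Its sign turned without C22 or without P30, with a lowest value of -0.01.

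**Figure D2:**
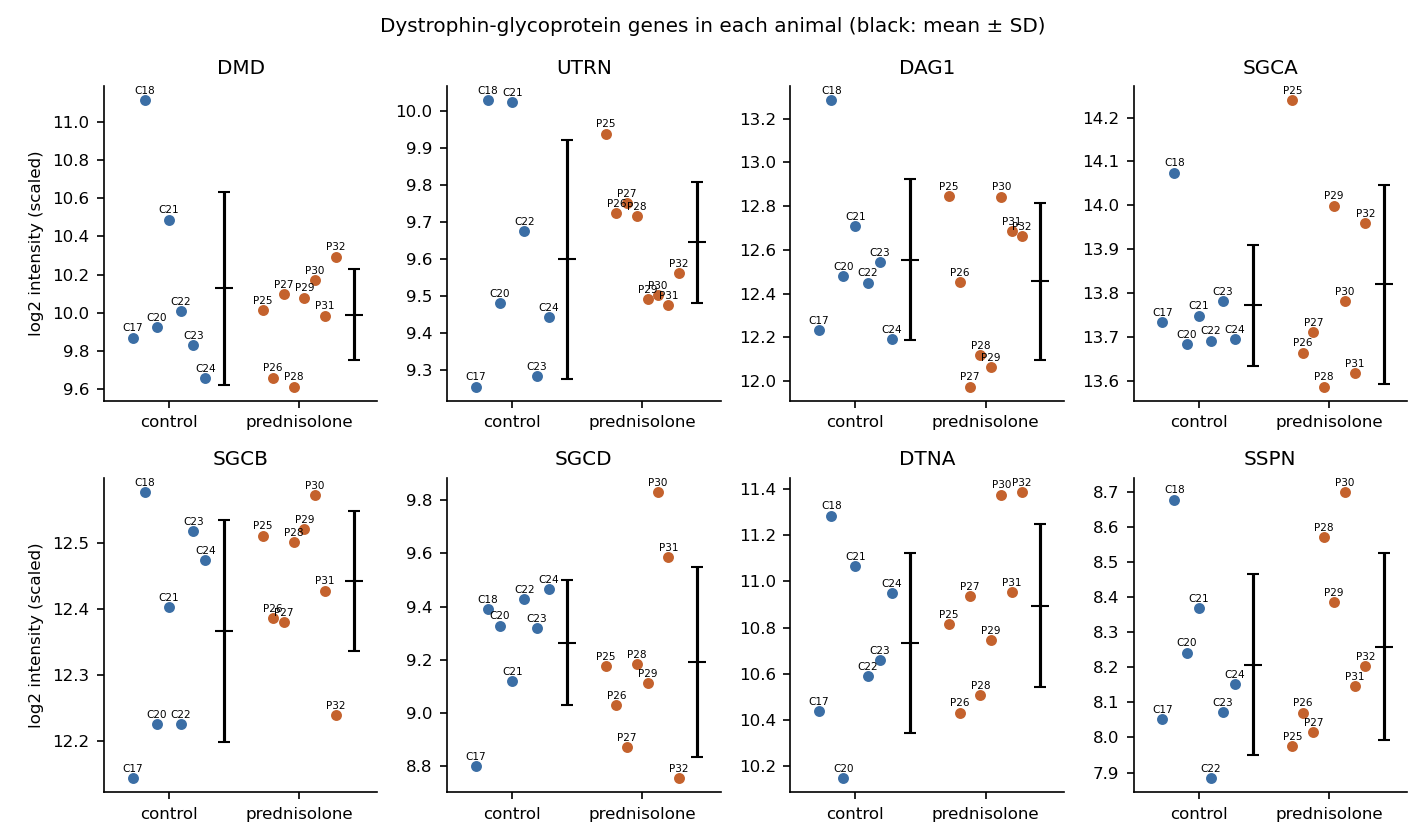
Scaled log2 intensity of the brightest probe of each gene in every animal, with controls in blue and prednisolone-treated animals in orange; black bars are the group mean ± SD. The groups overlap in every panel, and C18 is the highest control for all genes but SGCD.

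Each probe is carried by 2 spots, which gives a technical error within an array. The median difference between spots over the 15 arrays was 0.03 log2 for DMD, 0.04 for SGCA and SGCD, 0.07 for UTRN, 0.10 for SGCB, 0.11 for DTNA, 0.12 for DAG1 and 0.16 for SSPN. The pooled SD between animals of the same group was 0.384 for DMD, the largest of the 8, and 0.251 for UTRN.

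Genes with several probes were compared probe by probe. The fainter SGCB probe averaged 5.29 ± 0.42 in controls and 5.45 ± 0.21 in treated animals, a difference of 0.17 (95% interval -0.20 to 0.53), with the same sign as the brighter one. The second SGCD probe averaged 9.07 ± 0.25 and 8.90 ± 0.25, a difference of -0.17 (95% interval -0.46 to 0.12). The 2 fainter DTNA probes, described by other transcript variants, differed by -0.0042 (95% interval -0.37 to 0.36) and 0.05 (95% interval -0.41 to 0.52), so the value of 0.16 on the brightest DTNA probe was the largest of the 3.

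The probes of SGCD did not follow each other between animals. After removal of the group means, the Pearson correlation of the 2 SGCD probes over 15 animals was -0.06 (Spearman rho -0.20). A further probe, outside the rule since its description gives no symbol but reads δ-sarcoglycan isoform 1, followed the brighter SGCD probe with r = 0.95 and the second one with r = 0.09. It was at 7.51 ± 0.38 in controls and 7.48 ± 0.42 in treated animals, a difference of -0.03 (95% interval -0.47 to 0.41). Between the 2 SGCB probes r was 0.39, and between the brightest DTNA probe and the other two it was 0.41 and 0.62. These correlations describe 15 arrays on which all probes share the scaling, and values given for SGCD are those of its brighter probe.

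All 8 genes lay above the group mean in one control animal and below it in another. C18 had the highest control value of 7 of the 8 genes and the highest of all 15 animals for 4 of them, and lay above its group mean for all 8, by 0.47 log2 on average. For comparison, C18 was the highest control for 15.9% of the 10124 well-measured genes and the highest of all 15 animals for 7.47%. It lay above its group mean for 46.0% of them, and its median deviation over these genes was -0.04. C17 lay below its group mean for all 8 genes, by 0.26 on average, and was the lowest control for 3. For SGCA it stood at the control median of 13.73, only 0.04 below the mean. Over the well-measured genes C17 was the lowest control for 17.8%, lay above its group mean for 52.9% and had a median deviation of 0.03. P30, with a mean deviation of 0.26, was the highest treated animal for SGCB, SGCD and SSPN, and P25 for UTRN, DAG1 and SGCA. P32 was the highest treated animal for DMD and DTNA and the lowest for SGCB and SGCD.

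Some other transcripts moved with these animals and some did not. The mean log2 intensity of the 9 fibre markers was highest on C18 (16.91, of a control range from 16.08 to 16.91 and a treated range from 15.94 to 16.86) and rank 14 of 15 on C17. Adipocyte markers were lowest on C18, where the 4 of 6 markers valued on all arrays averaged 7.21. The thymocyte transcripts were highest on C17, at 10.97, and rank 9 on C18. Satellite cell markers were rank 2 on C18 and rank 15 on C17, fibroblast markers rank 2 and rank 12, and endothelial markers rank 8 and rank 15, from the highest down. The partner genes of linkage and repair and the matrix ligands, described below, were rank 1 on C18 and rank 15 on C17. Core and cytoplasmic partners were rank 3 and rank 15, and glycosylation enzymes rank 4 and rank 10. Nerve markers were rank 13 on C18 and rank 10 on C17, and smooth muscle markers rank 14 and rank 12. Hepatocyte markers were rank 13 and rank 15, and testis transcripts rank 10 and rank 9. Neuromuscular junction markers were low in both, at rank 14 on C17 and rank 13 on C18. Their part in the pattern of C17 and C18 was not tested. Without both animals, a choice made after their values were seen, 0 of 8 genes passed the test and the difference of DMD was 0.01.

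**Figure D3:**
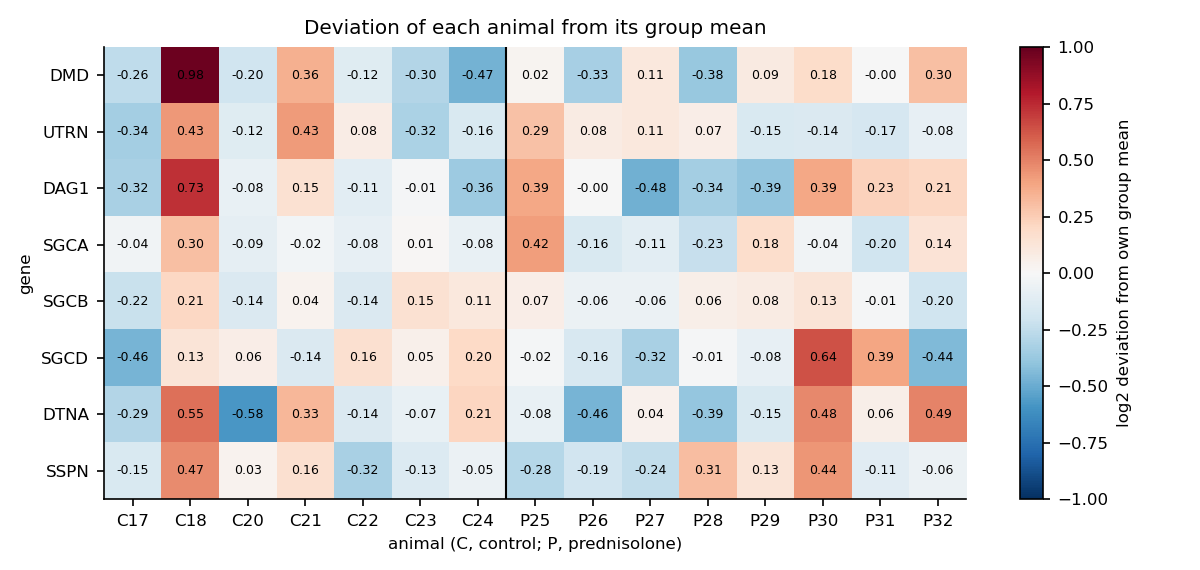
Log2 deviation of each animal from the mean of its own group, for the brightest probe of each of the 8 genes; the vertical line divides 7 controls from 8 treated animals. C18 is above its group mean in all rows and C17 below it in all rows.

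How the genes varied together was measured by correlating their deviations from the group means over the 15 animals. Of the 28 pairs, 26 had a positive Pearson r, with a median of 0.38 and a range from -0.13 for SGCA with SGCD to 0.71 for DMD with DTNA. No pair passed the test after adjustment over the 28 pairs (two-sided permutation within groups), and 6 had an unadjusted permutation p under 0.05. The DMD and DTNA pair had r = 0.71 (permutation p = 0.00287, adjusted p = 0.0804) and rho = 0.66 (permutation p = 0.0113, adjusted p = 0.31), and r was 0.85 without C18 and C24, the 2 animals farthest from the DMD median. DMD with DAG1 had r = 0.68 (permutation p = 0.00899, adjusted p = 0.107) and rho = 0.49 (adjusted permutation p = 0.31), falling to r = 0.39 without the same animals. DMD with SGCA had r = 0.58 (adjusted permutation p = 0.107) and rho = 0.55 (adjusted permutation p = 0.31), and r = 0.40 without them. DMD with UTRN had r = 0.60 (adjusted permutation p = 0.198) and rho = 0.50 (adjusted permutation p = 0.31), and r = 0.37 without them.

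DMD with SGCD had r = 0.03. SGCD instead went with SGCB (r = 0.56, adjusted permutation p = 0.125; rho = 0.53, adjusted permutation p = 0.31), which fell to 0.27 without C17 and P32, and SGCB with SSPN had r = 0.55 (adjusted permutation p = 0.189; rho = 0.52, adjusted permutation p = 0.31), which was 0.58 without the same animals. Both pairs depended on the probe: with the mean of all probes of a gene, r was 0.27 for SGCB with SGCD and 0.08 for SGCB with SSPN, while DAG1 with SGCD went from 0.38 to 0.70. DMD with DTNA was at 0.48 with the mean of all probes (adjusted permutation p = 0.307). Without C18 the median over the 28 pairs was 0.22, with 22 positive. Where single pairs were given without animals above, and here, the group means of all animals were kept. The count of pairs past the threshold moved with the scaling of the arrays: it was 4 on the values as deposited, among them DMD with DTNA, DAG1 and SGCA, 3 with quantile normalization and 2 with equal medians.

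**Figure D4:**
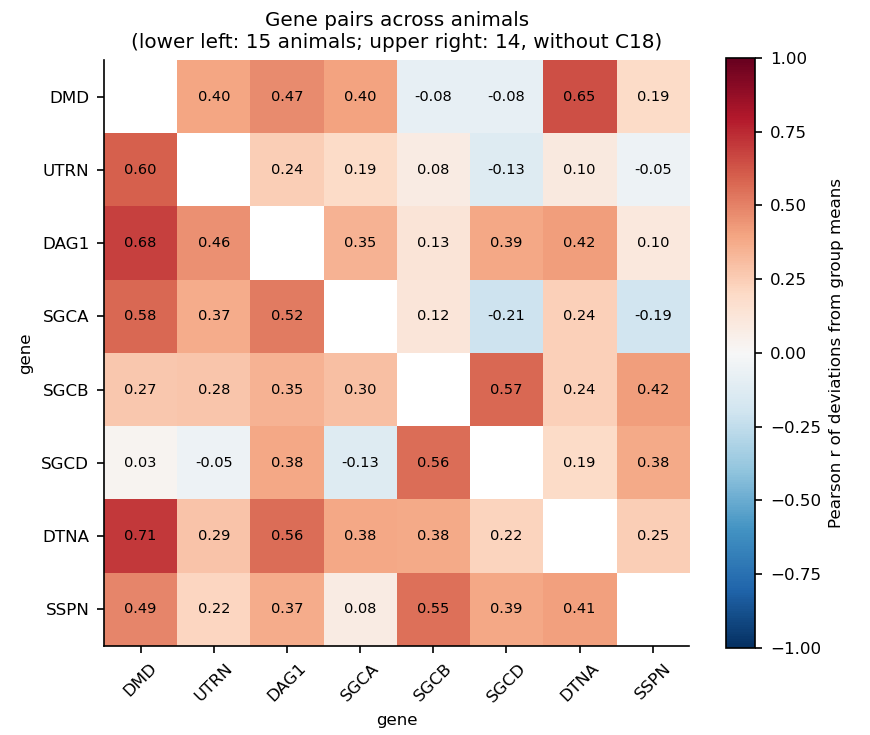
Pearson r between the genes, on deviations from the group means. The lower left triangle uses all 15 animals and the upper right triangle 14, without C18 but with the group means of all 15 kept. DMD with DTNA is highest in both, at 0.71 and 0.65.

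Among 10116 other well-measured genes, those with a pattern most like DMD over the 15 animals were MARK2, a polarity kinase (r = 0.93), KIAA0494 (r = 0.92), CAMTA2 (r = 0.92), MKL2 (r = 0.92) and DENND4B (r = 0.89). The names are those in the array descriptions, except for DENND4B, which is described there as KIAA0476. Without C18 these r values lay between 0.83 for KIAA0494 and 0.87 for MARK2. Most like the mean of the 8 genes were MAN2A2 (r = 0.93), the coactivator CRTC1 (r = 0.93), the retinoid receptor RXRA (r = 0.93), EML1 (r = 0.92) and C6orf106 (r = 0.91). They were picked as the highest of all genes and are given as a description. For DMD the middle 90% of well-measured genes had r between -0.62 and 0.64, and against this distribution DTNA lay at percentile 97.3, DAG1 at percentile 96.5 and SGCD at percentile 59.1. UTRN lay at percentile 93.8, SGCA at 93.1, SSPN at 89.4 and SGCB at 77.4, all within that middle 90%.

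A wider list of 56 partner genes was examined next, covering the remaining sarcoglycans and cytoplasmic partners, the matrix ligands, the enzymes that glycosylate dystroglycan, and other proteins of sarcolemmal linkage and repair. A probe was found and tested for 54, and 47 were well above background on all 8 treated arrays. None of the 54 passed the test and none had an unadjusted limma p under 0.05, against the 3.21% of all genes given above. Over the 47 well above background the differences were positive for 27 and negative for 20, with a median of 0.01, beside 0.01 over all genes.

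Of the core and cytoplasmic partners, 18 of 19 were tested, and of the 14 well above background 9 had a positive and 5 a negative difference. ε-Sarcoglycan (SGCE), the widely expressed relative of SGCA, measured 5.23 ± 0.49 in controls and 5.50 ± 0.53 in treated animals, a difference of 0.27 (95% interval -0.27 to 0.82). SGCE and NOS1 are named for their place in the complex, and LAMA2, BGN and DYSF below likewise, after their values were seen. By the rule of the smallest p in each role, SYNC and the adaptor ankyrin ANK2 are named too. The SYNC probe did not rise well above background on any treated array and is given no fold. ANK2 differed by 0.12 (95% interval -0.11 to 0.35) on its brightest probe, while its other 2 probes had the opposite sign. Neuronal nitric oxide synthase (NOS1), which is anchored to the complex, passed the background flag on a single treated array and is given no difference.

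Of the matrix ligands, all 10 were tested, and of the 9 well above background 2 had a positive and 7 a negative difference. Perlecan (HSPG2), a basement membrane proteoglycan that binds dystroglycan, measured 13.25 ± 0.71 in controls and 12.78 ± 0.47 in treated animals, a difference of -0.48 (95% interval -1.10 to 0.14, limma adjusted p = 0.993). Of the 8 treated animals, 1 exceeded the median control. Its difference was -0.69 without C17 and -0.31 without C18, its other probe had the opposite sign, and the mean of both differed by -0.21. Laminin α4 (LAMA4) differed by -0.31 (95% interval -0.79 to 0.17), and by -0.20 without C18. Laminin α2 (LAMA2), the main laminin chain around muscle fibres, measured 10.36 ± 0.60 and 10.36 ± 0.27. BGN measured 11.47 ± 0.70 in controls and 11.94 ± 1.03 in treated animals, a difference of 0.47 (95% interval -0.45 to 1.40). As with the mean deviation of the 8 genes, the mean of the 9 ligands valued on all arrays was highest on C18 (10.71) and lowest on C17 (9.37).

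Of the glycosylation enzymes, 17 of 18 were tested, and of the 15 well above background 9 had a positive and 6 a negative difference. POMGNT2, which extends the O-mannosyl sugar of dystroglycan, measured 11.06 ± 0.19 in controls and 10.88 ± 0.20 in treated animals, a difference of -0.18 (95% interval -0.43 to 0.06). Of the 8 treated animals, 1 exceeded the median control. POMGNT1, which acts in the same pathway, measured 12.31 ± 0.28 and 12.52 ± 0.19, a difference of 0.20 (95% interval -0.08 to 0.48). Of the 8 treated animals, 8 exceeded the median control. Both had a limma adjusted p of 0.993.

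Of the other linkage and repair genes, all 9 were tested, 7 with a positive and 2 with a negative difference. Integrin α7 (ITGA7), the second laminin receptor of muscle, measured 14.43 ± 0.20 in controls and 14.58 ± 0.29 in treated animals, a difference of 0.15 (95% interval -0.15 to 0.45). Of the 8 treated animals, 7 exceeded the median control. Its β1 partner (ITGB1) differed by -0.07 (95% interval -0.27 to 0.12). Dysferlin (DYSF), a protein of membrane repair, differed by 0.07 (95% interval -0.46 to 0.61).

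**Figure D5:**
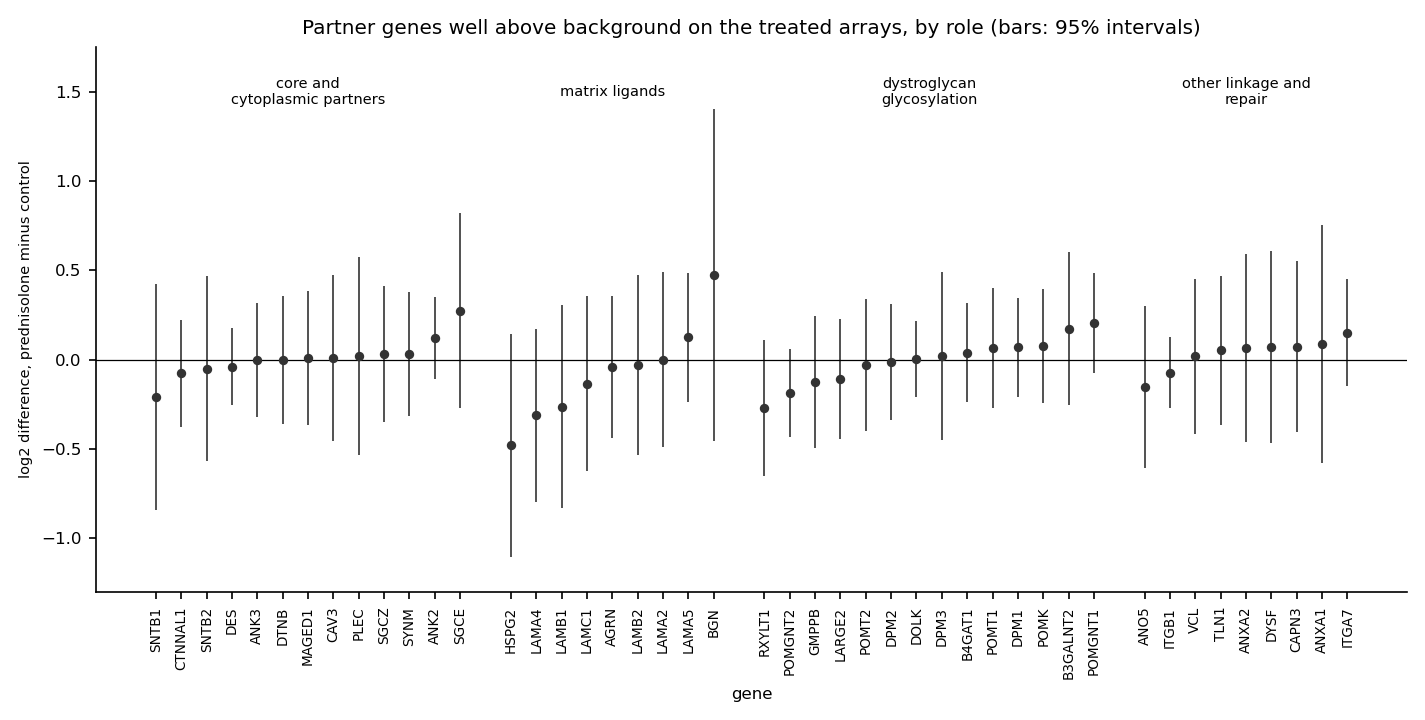
Log2 difference between prednisolone-treated (n = 8) and control (n = 7) animals for 45 of the 47 partner genes that were well above background on all 8 treated arrays, grouped by role, with bars for the 95% interval from limma. Every interval crosses 0, and BGN and HSPG2 are farthest from it.

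Markers of muscle fibres and of other cell types and tissues were listed as well. The counts cover the markers that were well above background on all 8 treated arrays. Neuromuscular junction markers, from the site where utrophin and dystrobrevin are concentrated in muscle, had 4 positive and 3 negative differences with a median of 0.01. Smooth muscle and pericyte markers had 7 of 8 positive differences with a median of 0.33, endothelial markers 5 of 7 negative with a median of -0.19, adipocyte markers 4 of 4 positive with a median of 0.66, and nerve and Schwann cell markers 3 of 3 positive with a median of 0.37. Satellite cell markers (4) had a median of -0.01, fibroblast markers (5) of -0.18, fibre markers (9) of -0.10, thymocyte markers (4) of -0.20 and hepatocyte markers (4) of 0.06. In each of the smooth muscle, endothelial, adipocyte, nerve, fibroblast and testis lists 1 of these genes had an unadjusted limma p under 0.05. Over all genes tested the share was 3.21%, and in no list did a gene pass the adjusted test. Of the 7 testis transcripts, 2 were well above background on all treated arrays, and their differences were -3.44 for TNP2 and -0.73 for ODF1. Over all 7, the difference was negative for 6 and positive for PRM2, which was not well above background on any treated array. An unadjusted limma p under 0.05 was found for 3. Besides TNP2 these were PRM1 (-5.03) and TNP1 (-4.56), well above background on 6 and 5 treated arrays.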

How the data were processed

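Per the file headers and labels, the authors scanned 1-colour Agilent bovine arrays, 1 per animal, and extracted signals with Agilent Feature Extraction; R 2.11.1 is named in the submitters' processing notes. The values used are the intensities that the authors deposited for all 15 animals, on a linear scale and already brought to a common scale between arrays by an unstated method. The scanner files deposited for the 8 treated arrays gave background and saturation flags and a check of the table (lowest r of log2 values over spots 0.9998). After log2, each array was scaled to a common 75th percentile over the probes valued on all arrays, spots of a probe were averaged, and probes with at least 3 values per group were tested with limma 3.58.1 in R 4.3.3 (lmFit and eBayes, Benjamini-Hochberg over 20894 probes, threshold 0.05). The script was tested on simulated data. Correlations used 100000 permutations within groups. The 8 genes and all lists were chosen with earlier results of these data known. Partners named by rule are the 2 with the smallest p in each role and any with an unadjusted p under 0.05. For likeness the 5 highest r were named. Alternatives covered scaling, filter, probe choice, array weights, an exact Wilcoxon test and leaving out animals. Of the treated arrays, some shared a slide (5 slides, 3 scan days); slides of controls were not used here. Sequences of the probes were not used here. Values of some partner genes are not reported here.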

Additional observations from a re-analysis of the deposited data

Results flagged for a closer look

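Of 40 groups of values tested, 1 held an animal far from the others, and chance alone is set to flag about 5% of groups. This was SGCA in control C18, at 14.07 log2 intensity, against 13.78 for the next highest control, a gap of 0.751 of the whole range of the group.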

How the results depend on the processing

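Across 212 alternative values of the 8 differences, 9 changed sign and none passed the test. The alternatives that change only the filter or the test keep the difference as it is, so its sign could not change there. The same holds for the mean of all probes in genes with a single probe. On leaving out 1 animal at a time, DMD ranged from -0.22 to 0.026, UTRN from -0.011 to 0.12, DAG1 from -0.16 to 0.021, SGCA from -0.012 to 0.10, SGCB from 0.04 to 0.11, SGCD from -0.16 to -0.01, DTNA from 0.06 to 0.25 and SSPN from -0.012 to 0.13. Without C17 and C18, chosen after seeing the data, DMD was 0.0074; the second DTNA probe gave -0.0042, and the mean of all ANK2 probes -0.021. Among partners, leaving out 1 animal gave -0.69 to -0.31 for HSPG2, -0.44 to -0.20 for LAMA4, -0.24 to -0.15 for POMGNT2, 0.13 to 0.27 for POMGNT1, 0.10 to 0.24 for ITGA7, -0.10 to -0.03 for ITGB1 and 0.08 to 0.16 for ANK2. The count of all genes past the threshold was 1 without C20 and P31, and 0 to 1 on leaving out 1 animal. Genes with an unadjusted p under 0.05 numbered 499, against 319 with dim probes removed (fewer genes tested), 1018 with array weights, 862 without C20 and P31 and 1147 without P31; in the partner list they numbered 2 with array weights and 1 without C17, without P27 or without C17 and C18. Pairs of the 8 genes past the threshold numbered 4 on the deposited values, 2 with equal medians, 3 with quantile normalization and 1 without C20 and P31; the cause was not tested. DMD with DTNA passed in the first, second and last of these, with r = 0.72, 0.76 and 0.73. Its r was 0.48 with the mean of all probes (adjusted permutation p = 0.307), 0.64 without C18 (0.388) and 0.64 without C17 and C18 (0.765). No paired analysis was possible because control and treated animals share no replicate numbers. The number of arrays limits the precision.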
